A study of Homo sapiens with 6 samples.

Results

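The S100 genes encode small calcium-binding proteins of the EF-hand type, and 10 of them were followed here in CAL27 cells: S100A2, S100A4, S100A6, S100A7, S100A8, S100A9, S100A10, S100A11, S100A14 and S100P. Members were taken by gene symbol, and all 10 had a row in the deposited count table of 32353 genes and in the FPKM table of 31513 genes. CAL27 is an established cell line of human tongue squamous carcinoma. Cells with a control plasmid (3 libraries) were set against cells overexpressing the RNA-binding protein RBM24 (3 libraries). The labels name neither the vector nor the time after its delivery, nor whether expression was transient or stable, and nothing in them tells if the replicates came from separate cultures. The p-values therefore measure only the spread between these libraries, which may be technical.

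S100 proteins form dimers that open on binding calcium and then hold target proteins inside the cell; several are also secreted and act on receptors such as RAGE and TLR4. Most S100 genes lie in a cluster in band q21 of chromosome 1, beside genes of the cornified envelope of skin and oral epithelium. In squamous epithelium, S100A2 marks basal cells. In the epidermis of skin, S100A7, S100A8 and S100A9 are little made at rest and strongly induced in inflammation and wounding.

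The libraries held between 53558773 and 68804210 gene counts, and 17887 genes passed the filter on low counts. Levels are given as CPM, counts scaled to library size, or, where genes are compared with each other, in the deposited FPKM, which also divide by gene length. RBM24 itself stood at 2.93 ± 0.576 CPM (SD, n = 3) with the control plasmid and at 119.6 ± 8.89 (SD, n = 3) with overexpression. Control library 1 stood apart on the first principal component (33% of variance), at -33.4, while the remaining controls had -4.95 and -0.0363 and RBM24 cells 9.28 to 15.4. Its part in the results was not tested, but each tested member's value without it is given. For those that did not pass in either fit and are not taken up again, these log2 fold changes were 0.15 for S100A6, 0.22 for S100A10, -0.04 for S100A11 and 0.15 for S100A14 (edgeR adjusted p = 0.114 to 0.872). Markers of squamous epithelium were present at uneven levels. The basal keratin gene KRT5 was at 628.7 and the adhesion gene EPCAM at 309.6 CPM in that library. Others of the list were low there, with KRT14 at 4.31 and DSG3 at 11.1 CPM. The summed level of all 9 markers lay between 1927 and 2012 CPM in control libraries and between 2101 and 2106 with RBM24, and 0 of the 9 passed the test.

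With RBM24, the calprotectin genes S100A8 and S100A9 fell and none of the other 7 tested members passed the test in either direction. By the edgeR quasi-likelihood test, with Benjamini-Hochberg adjustment over all genes to 0.05, 0 of 9 tested members rose and 2 fell. Of all tested genes, 0.855% rose and 0.682% fell. The members' median log2 fold change, RBM24 over control plasmid throughout, was -0.02, and that of all tested genes was -0.00374. At an unadjusted p under 0.05, S100A10 and S100A4 had positive changes and S100A7 a negative one.

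S100A8 encodes the smaller subunit of calprotectin, a heterodimer that withholds zinc and manganese from microbes and acts as an alarm signal. Control libraries 1 to 3 held 123.7, 92.4 and 65.7 CPM of it, against 47.5, 51.3 and 59.2 CPM in RBM24 libraries 1 to 3. The groups were fully apart, although RBM24 library 3 came close to control library 3, and the control libraries were spread much more widely than the RBM24 libraries. The mean went from 93.9 ± 29 to 52.7 ± 6.00 CPM (SD, n = 3 each), 43.9% lower in the fit, with a log2 fold change of -0.83 (SE 0.148; edgeR adjusted p = 0.00862). The call held without each of the 6 libraries in turn (adjusted p = 3.11e-05 to 0.0428), with a log2 fold change of -0.58 without control library 1 and -1.04 without control library 3. DESeq2 gave the same change with an adjusted p of 0.0744, and limma on the FPKM values did not call it (adjusted p = 0.173 to 0.377).

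S100A9 encodes the larger calprotectin subunit and had the highest FPKM of the members in control cells, though not the highest CPM. It stood at 600.6, 522.2 and 415.1 CPM in control libraries 1 to 3 and at 324.7, 331.1 and 358.1 CPM in the RBM24 libraries. The groups did not overlap, and the highest RBM24 library was again the third and the lowest control library also the third. The fit placed S100A9 34.1% lower, from 512.6 ± 93.1 to 338.0 ± 17.7 CPM (SD, n = 3 each; log2 fold change -0.60, SE 0.0935, edgeR adjusted p = 0.00312). It kept its call without each library in turn, with -0.47 (adjusted p = 0.00372) without control library 1, and by DESeq2 (adjusted p = 0.00853), but not by limma on FPKM (adjusted p = 0.116 to 0.295). Groups without overlap were found in 8.62% of all tested genes with RBM24 below and in 9.53% with RBM24 above. Among the 9 tested members the numbers were 2 and 1.

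**Figure D1:**
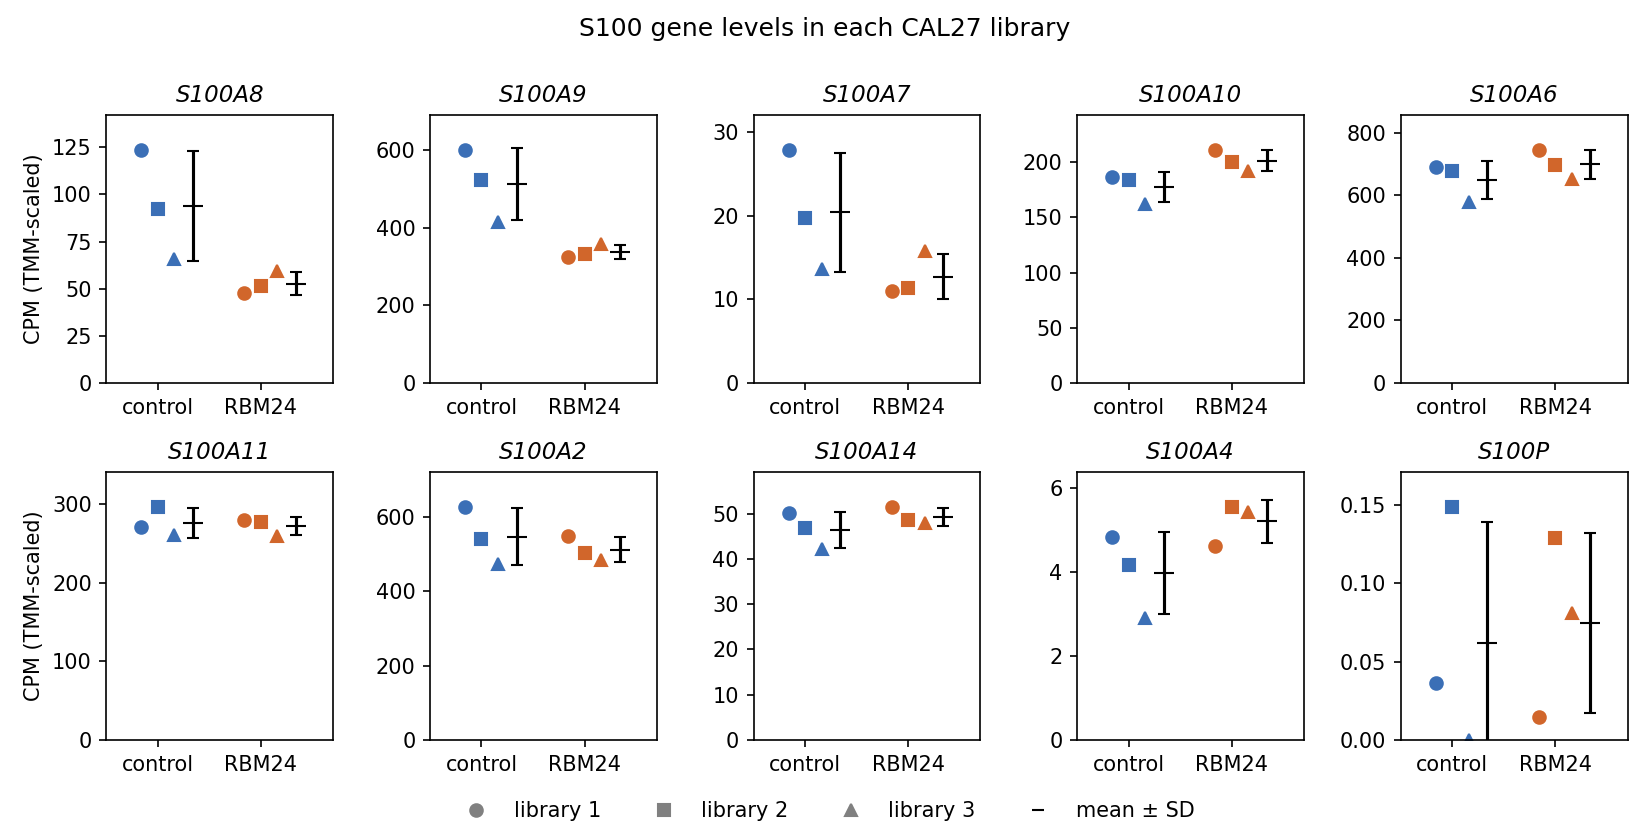
Level of each member in every library in CPM on linear axes from 0, with library number by symbol, control in blue and RBM24 in orange; bars are mean ± SD of 3 libraries, and the lower bar of S100P in the control group runs below 0 and is not drawn there. S100A8 and S100A9 separate downward and S100A10 upward, while in S100A7 RBM24 library 3 (15.8 CPM) lies above control library 3 (13.7 CPM).

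The subunits were compared within each library, since a ratio of FPKM values does not depend on library scaling. S100A8 made 0.132, 0.114 and 0.102 FPKM per FPKM of S100A9 in the control libraries and 0.0941, 0.0997 and 0.106 with RBM24. The groups overlapped, because RBM24 library 3 exceeded control library 3. The mean log2 ratio was 0.21 lower with RBM24 (-0.21), which did not pass a two-sided exact permutation test (p = 0.2, n = 3 each), where the smallest possible p is 0.1. With 3 libraries a group this test could not reach 0.05, so it does not tell whether the subunits differed in response.

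S100A7 encodes psoriasin, an antimicrobial protein of inflamed squamous epithelium. Control libraries 1 to 3 held 27.9, 19.7 and 13.7 CPM, and the RBM24 libraries 11, 11.4 and 15.8 CPM. The third library of each group went against the others, so that the groups overlapped. The fitted change of -0.68 (SE 0.182), 37.6% lower, did not pass (edgeR adjusted p = 0.0867). It passed without control library 3 (-0.90, edgeR adjusted p = 0.00242) or RBM24 library 3 (-0.87, adjusted p = 0.0231). Without control library 1 it was -0.39 (adjusted p = 0.269). With no filter on low counts the change stayed at -0.68, but the edgeR adjusted p became 1.79e-16. In that fit S100A8 went to 1.09e-44 at an unchanged -0.83. Values this small are implausible for 3 libraries a group, so the calls of that fit are not relied on. S100A7 has a near copy, S100A7A, in the same cluster. That gene stood at 2.18, 1.77 and 1.37 CPM in control libraries and at 0.941, 0.961 and 1.36 CPM with RBM24, with a change of -0.70 (adjusted p = 0.108). The sources used here do not say how counting shared reads between such copies, so the values of both are uncertain.

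The promoters of S100A9, S100A8 and S100A7 are shown because these are the members with the most negative changes. Each is the 200 bases before the transcription start given by RefSeq on GRCh38.p14, 5′ to 3′ on the gene's strand, with capitals at a TATAAA match within 50 bases of the start and at C/EBP-type matches (TTNNGNAA, either strand). For S100A8, the entry of 3 that carries the TATAAA match was taken. The regions are chr1:153357654-153357853 on the plus strand for S100A9, chr1:153391074-153391273 on the minus strand for S100A8 and chr1:153460652-153460851 on the minus strand for S100A7.
S100A9: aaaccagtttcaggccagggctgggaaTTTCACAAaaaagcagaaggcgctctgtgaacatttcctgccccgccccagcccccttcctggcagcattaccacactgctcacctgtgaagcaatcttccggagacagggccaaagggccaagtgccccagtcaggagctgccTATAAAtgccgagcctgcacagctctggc
S100A8: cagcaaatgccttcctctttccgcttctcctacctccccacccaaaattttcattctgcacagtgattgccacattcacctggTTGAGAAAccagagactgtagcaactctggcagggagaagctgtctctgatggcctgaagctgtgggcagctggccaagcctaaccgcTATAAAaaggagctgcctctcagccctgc
S100A7: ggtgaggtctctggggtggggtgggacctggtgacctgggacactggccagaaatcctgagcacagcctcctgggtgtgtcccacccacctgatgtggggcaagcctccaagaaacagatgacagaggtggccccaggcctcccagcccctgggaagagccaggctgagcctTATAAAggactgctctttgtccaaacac

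In these sequences TATAAA begins 29 bases before the start in S100A9 and S100A8 and 28 bases before it in S100A7. All 10 members matched a RefSeq promoter, and 5 of the 10 had this match, the others being S100A4 and S100P. Among all 34943 promoters in that table the share was 2.63%. Members were counted by gene, S100A8 by the entry chosen for its match, while these shares count single promoter entries, so the units are unlike. A C/EBP-type match was in 5 of 10 members, against 33.2% of all promoters searched over 250 bases on both strands, and lay at -117 in S100A8 and -173 in S100A9. The AP-1 letters TGANTCA were in 1 of 10 members, S100A2 at -52, against 6.59% of promoters. An NF-kB consensus was in S100A14 alone among the members, against 5.2% of promoters. In the window of 200 bases, 97% of the positions were identical between S100A7 and S100A7A, aligned without gaps, against 26.5% between S100A8 and S100A9. A match is a description of letters and says nothing of binding in these cells.

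S100A10 and S100A11 encode partners of annexins. S100A10, also called p11, holds annexin A2 at the plasma membrane and, unlike its relatives, does not need calcium. Its level was 186.4, 183.8 and 162.1 CPM in the control libraries and 211.0, 199.6 and 192.1 CPM with RBM24. The RBM24 values were the higher ones in every pairing, by a small margin. The log2 fold change of 0.18 (SE 0.0587) did not pass (edgeR adjusted p = 0.173). S100A11, which binds annexin A1, stood at 270.6, 296.8 and 260.6 CPM in control libraries and at 279.2, 277.6 and 259.5 CPM with RBM24. Those groups overlapped throughout, and the log2 fold change was -0.02 (SE 0.0569; adjusted p = 0.924), with a sign that turned under 6 of 16 alternative settings.

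S100A6, or calcyclin, named for its rise in proliferating cells, was abundant in both groups. It stood at 690.2, 676.7 and 579.6 CPM in control libraries and at 745.3, 698.2 and 651.5 CPM with RBM24. The overlapping groups differed by 0.11 on the log2 scale (SE 0.0694; edgeR adjusted p = 0.560). An antisense gene shares 23 of its 971 exon bases and stood at 0.0922 CPM. The basal epithelial gene S100A2 stood at 627.6, 541.0 and 473.0 CPM with the control plasmid and at 548.1, 503.3 and 484.1 CPM with RBM24. Its values lay within the control range in all 3 RBM24 libraries, with a change of -0.10 (SE 0.0810; adjusted p = 0.669), which became 0.01 without control library 1. S100A14, a member found mainly in epithelia, stood between 42.2 and 50.1 CPM in control libraries and between 47.9 and 51.6 with RBM24 (log2 fold change 0.09, adjusted p = 0.589).

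S100A4, a binding partner of non-muscle myosin known for its link with metastasis, was low in these cells. Control libraries 1 to 3 held 4.84, 4.18 and 2.91 CPM, and RBM24 libraries 1 to 3 held 4.63, 5.56 and 5.43. Library 1 of RBM24 lay below library 1 of the control group, so the groups overlapped. The log2 fold change of 0.39 (SE 0.145) did not pass (edgeR adjusted p = 0.238), and it was 0.20 without control library 3 and 0.56 without control library 1. With no filter on low counts it was called (edgeR adjusted p = 0.0273), but the calls of that fit are not relied on, as given for S100A7. In GENCODE 29 the S100A3 gene lies within the span of S100A4 on the same strand, with 0 exon bases shared.

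S100P, whose product binds ezrin, was near the limit of detection and was not tested. Control libraries 1 to 3 gave raw counts of 2, 8 and 0, and RBM24 libraries 1, 7 and 5. A count of 0 in control library 3 allows up to 3 counts, or 0.0483 CPM, for counting error only. No difference between the groups was detectable at this depth.

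Per gene length, the members spanned a wide range. In control cells S100A9 led at 815.9 ± 130.9 FPKM, followed by S100A6 at 610.2 ± 43.4, S100A11 at 388.7 ± 22.8, S100A2 at 323.0 ± 39.0, S100A10 at 160.2 ± 8.51, S100A8 at 96.0 ± 27.7, S100A7 at 38.3 ± 12.6, S100A14 at 33.2 ± 2.12, S100A4 at 3.83 ± 0.870 and S100P at 0.120 ± 0.151 (SD, n = 3 each). Of these neighbours, S100A7 and S100A14 overlapped between libraries and the other pairs did not. With RBM24 the order of the first pair was exchanged, with S100A6 at 672.3 ± 41.1 and S100A9 at 551.6 ± 31.9 FPKM (SD, n = 3 each). S100A14 at 36.1 ± 1.22 then stood above S100A7 at 24.5 ± 5.30 FPKM (SD, n = 3 each), and no neighbours overlapped. These exchanges come from the changes described above and were not tested on their own.

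**Figure D2:**
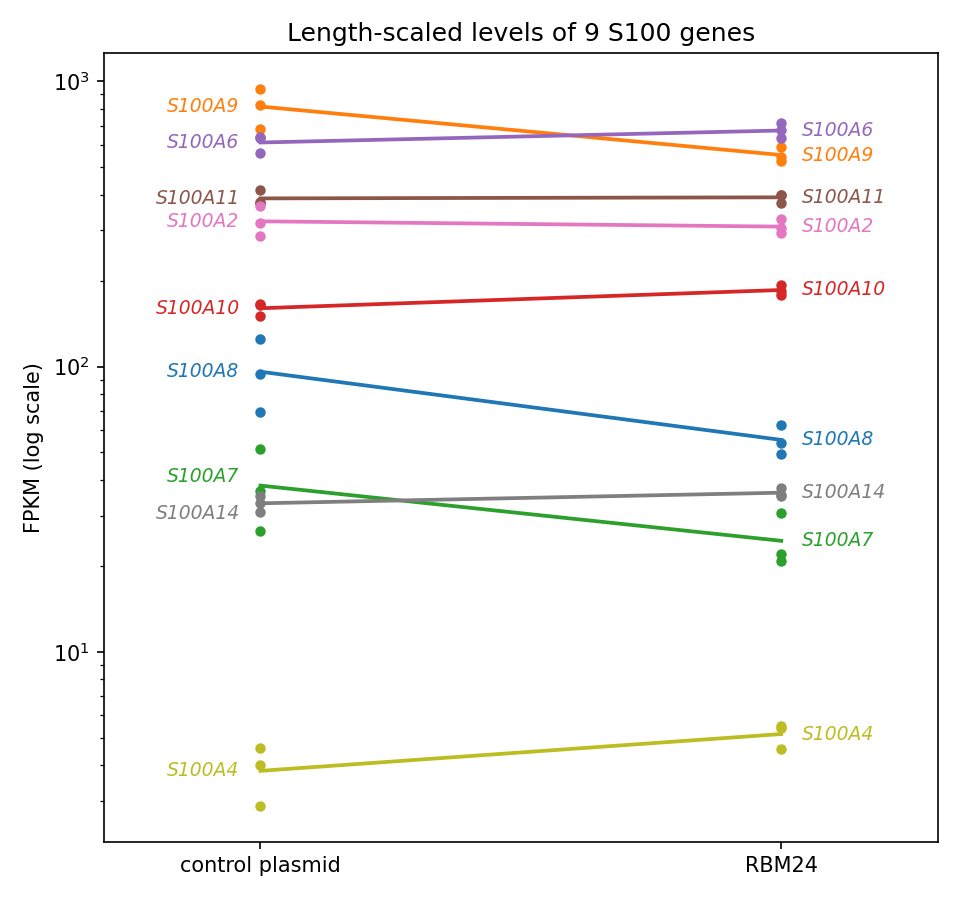
Length-scaled level of 9 members (S100P is left out) with control plasmid and with RBM24, in FPKM on a log axis; points are libraries and lines join the means of 3. The mean of S100A9 crosses that of S100A6, and the mean of S100A7 crosses that of S100A14, a pair that overlaps in the control libraries. S100A11 goes from 388.7 to 392.0.

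Together the 10 members made up 0.850%, 0.776% and 0.694% of all FPKM in control libraries 1 to 3 and 0.725%, 0.704% and 0.710% with RBM24. The groups overlapped in this share, which control library 3 held lowest of all. S100A9 made 31.1% to 34.9% of the members' summed FPKM in control libraries and 23.1% to 26.7% with RBM24, and S100A6 made 23.6% to 25.6% and 28.7% to 31.3%. Among all genes ordered by FPKM, S100A9 was at place 24, 27 and 36 in the control libraries and at 54, 49 and 43 with RBM24.

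The 3 members with the most negative changes, S100A7, S100A8 and S100A9, lie in one stretch of chromosome 1; S100A2 and S100A11, with changes of -0.10 and -0.02, lie outside it. Position was looked up after the values had been seen, so no test was made of it. From PGLYRP3 to S100A7 (GRCh38 chromosome 1, 153297862 to 153460701), 7 of 7 tested protein-coding genes had negative log2 fold changes, with a median of -0.68, where 51.4% of all tested genes were negative. The ends of the stretch were also set after the values were seen, and the 3 members named above are counted in it. PGLYRP3 was near the floor, at means of 0.252 CPM with control plasmid and 0.181 with RBM24. Its sign and that of S100A12 are uncertain (edgeR adjusted p = 0.758 and 0.810). S100A7 and S100A7A are near copies whose reads may be shared. The 7 genes were PGLYRP3 (-0.44), PGLYRP4 (-0.78), S100A9, S100A12 (-0.23), S100A8, S100A7A and S100A7. Of these, 3 passed the test, against 0.682% called lower among all genes, the third being the antibacterial peptidoglycan recognition gene PGLYRP4, at 3.85 ± 0.875 CPM with control plasmid and 2.24 ± 0.0463 with RBM24 (SD, n = 3 each; edgeR adjusted p = 0.0115, or 0.0518 without RBM24 library 2). In the next stretch, from S100A6 to S100A1 (153534599 to 153632039), 3 of 9 changes were negative and 6 positive, the median was 0.09, and 0 passed. S100A10 and S100A11 lie apart from both, on the side of the first stretch, at 151982915 to 151994390 and 152032506 to 152047907. S100P is on chromosome 4, at 6693069 to 6697170.

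**Figure D3:**
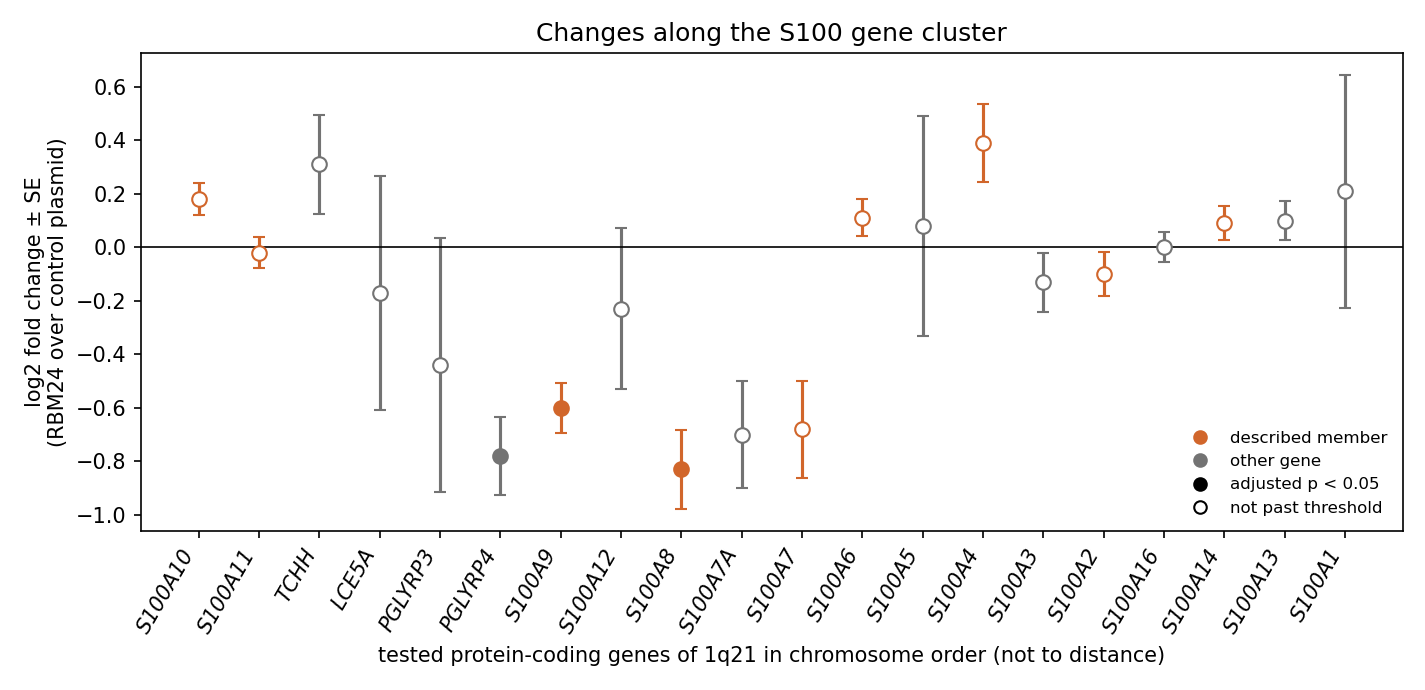
Log2 fold change ± SE of the 20 tested protein-coding genes from S100A10 to S100A1, in chromosome order with even spacing; orange marks members, filled points passed the test. The 7 genes from PGLYRP3 to S100A7 all lie below 0, at -0.83 to -0.23, and the 9 from S100A6 to S100A1 lie between -0.13 and 0.39.

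The other S100 genes showed no call. Of 12 looked for, 9 were in the count table and 8 were tested, of which 0 rose, 0 fell and 4 had negative changes (median 0.04). S100A16 stood at 162.4 ± 10.1 and 161.9 ± 7.50 CPM and S100A13 at 87.2 ± 8.42 and 93.6 ± 8.53 CPM in control and RBM24 libraries (SD, n = 3 each; edgeR adjusted p = 0.986 and 0.588). S100A3 (-0.13), S100A5 (0.08), S100A1 (0.21) and S100PBP (0.16), which encodes a binding protein of S100P, had adjusted p from 0.309 to 0.958. S100A12, the third of the calgranulins, stood at only 0.629 ± 0.221 and 0.537 ± 0.157 CPM (SD, n = 3 each; adjusted p = 0.810). Of 7 fused-type S100 genes, large proteins that begin with an S100 domain, TCHH was the only one tested (0.31, adjusted p = 0.515).

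Receptors and partners were given from lists. Of 9 tested receptor genes for S100 proteins, 0 passed in edgeR (unadjusted p under 0.05 in MCAM alone), and the median log2 fold change was -0.06. TLR4, a receptor of calprotectin, had a change of -0.13 (adjusted p = 0.699), its co-receptor LY96 -0.44 (adjusted p = 0.418), BSG, which encodes basigin and binds S100A9, -0.06 (adjusted p = 0.741), and the adhesion receptor MCAM 0.29 (adjusted p = 0.120). Of the intracellular partners, PLAT and AHNAK are described here. PLAT encodes tissue plasminogen activator, which the S100A10 and annexin A2 complex binds at the cell surface, and it fell to 198.0 ± 3.71 CPM from 248.3 ± 4.39 (SD, n = 3 each), a log2 fold change of -0.33 (edgeR adjusted p = 0.00148). AHNAK, a large scaffold held by S100A10 and annexin A2, had a change of 0.14 (adjusted p = 0.225).

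Alarm genes are those known to be switched on together with S100A7, S100A8 and S100A9 in inflamed epithelium. The list was chosen with earlier results of these data known, so its counts are no test of the group. Of 21 alarm genes tested, 10 fell, 0 rose and 11 did not pass, where 0.682% of all tested genes fell and 0.855% rose. Their changes were negative in 17 and positive in 4, with a median of -0.48 beside -0.00374 over all genes. The groups did not overlap in 7 with RBM24 below and in 2 with RBM24 above. Over all tested genes these shares were 8.62% and 9.53%. Among the alarm genes, CCL20, a chemokine for CCR6-bearing cells, had a change of -0.91 (edgeR adjusted p = 0.00604). The epithelial cytokine gene IL17C had one of -0.81 (adjusted p = 0.00622). Both fell with each library left out in turn, although DESeq2 gave 0.0553 for CCL20. IL1A (-0.60, edgeR adjusted p = 0.0161) and the serpin genes SERPINB3 (-0.44, adjusted p = 0.0174) and SERPINB4 (-0.51, adjusted p = 0.0191) also fell. These 3 calls ended without RBM24 library 1 (adjusted p = 0.0702, 0.0693 and 0.0884) or RBM24 library 2 (0.0942, 0.106 and 0.107). LCN2, IL1B, CXCL1, CXCL2 and KRT6B had changes of -0.25, -0.47, -0.55, -0.52 and -0.54, with calls that ended without at least 4 of the libraries, each left out alone. The number of alarm genes that fell was 2 without RBM24 library 1 or 2, 5 without control library 1 or 2, 4 by DESeq2 and 0 by limma on FPKM. SERPINB3 and SERPINB4 are close paralogs, so their reads may be shared.

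Among 15 tested transcription factor genes known to act on S100A7, S100A8 or S100A9, 1 rose and 1 fell, with a median of -0.03. Over all tested genes 0.855% rose and 0.682% fell, and the median was -0.00374. The immediate early gene FOS, an AP-1 subunit, rose to 4.55 ± 0.227 CPM from 2.40 ± 0.333 (SD, n = 3 each), a log2 fold change of 0.93 (edgeR adjusted p = 4.73e-04). CEBPD, a C/EBP factor of acute inflammation, fell to 47.6 ± 1.26 CPM from 57.0 ± 4.89 (SD, n = 3 each), a log2 fold change of -0.26 (edgeR adjusted p = 0.0429). That call ended without RBM24 library 1 (adjusted p = 0.203), 2 (0.213) or 3 (0.0593) or control library 2 (0.118). JUNB (0.18, adjusted p = 0.128) and NFKBIZ (-0.30, adjusted p = 0.116), a nuclear cofactor of NF-kB, did not pass. Of 4 tested cornified envelope genes and neighbours, PGLYRP4 fell and the keratin gene KRT10 (0.04, adjusted p = 0.850) and the transglutaminase gene TGM1 (0.15, adjusted p = 0.767) did not pass.

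Library by library, S100A8, S100A7 and CCL20 had like profiles, part of which other members shared. Against its own mean over the 6 libraries on the log2 CPM scale, S100A8 in control libraries 1 to 3 stood at 0.84, 0.42 and -0.07, and at -0.54, -0.43 and -0.22 with RBM24. S100A7 stood at 0.83, 0.33, -0.19, -0.52, -0.46 and 0.01, and CCL20 at 0.84, 0.50, -0.01, -0.70, -0.48 and -0.15 in the same order. In all 3 genes control library 1 was highest. Control library 3 was the lowest control and RBM24 library 3 the highest with RBM24, and in S100A7 these values crossed. Control library 3 was also the lowest control in S100A2 (-0.16), S100A4 (-0.62), S100A6 (-0.21), S100A10 (-0.22), S100A11 (-0.07) and S100A14 (-0.18). In these members except S100A11, control library 1 was the highest control. Those traits are therefore not particular to the lower members. RBM24 library 3 was not the highest with RBM24 in any of these other members. Of 10732 protein-coding genes whose mean log2 CPM reached 2, those nearest to S100A8 in this profile were C15orf48, CCL20 and CSF3, with root mean square differences of 0.0562, 0.0859 and 0.111 over the 6 libraries. Seen from S100A8, S100A7 was in place 6 (0.115) and S100A9 in place 18 (0.159). Seen from S100A9, S100A8 was in place 61 (0.159) and S100A7 in place 107 (0.191). Nearest to S100A9 were SNPH (0.0260), a gene listed under a clone name (0.0426) and ARRDC3 (0.0681). Whether other genes overlap the one with the clone name was not looked up. The libraries are the same for all genes, so shared differences between libraries enter this likeness, and their part was not tested.

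**Figure D4:**
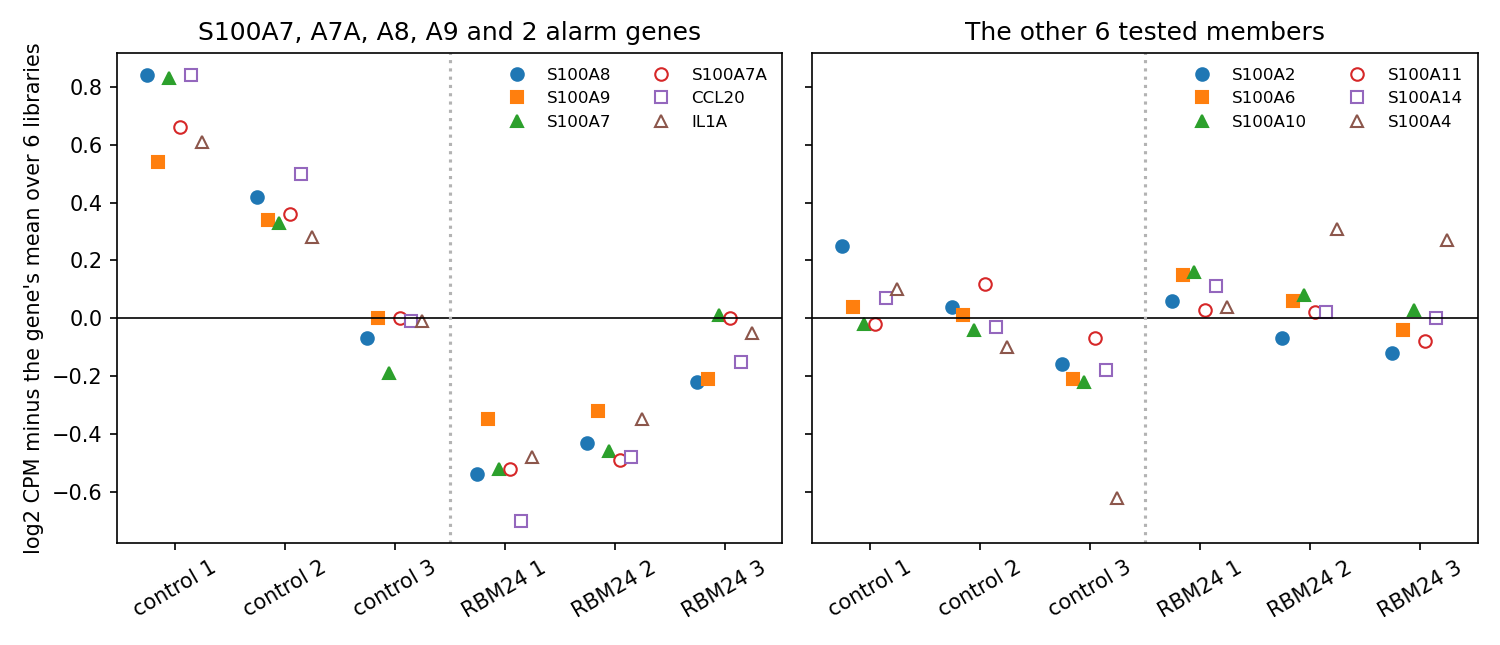
Log2 CPM of each gene minus its mean over the 6 libraries, with the 3 control libraries left of the dotted line and the 3 RBM24 libraries right of it. The left panel shows S100A8, S100A9, S100A7, S100A7A, CCL20 and IL1A, with control library 1 highest (0.54 to 0.84); in the right panel the values of the other 6 tested members lie between -0.22 and 0.25 apart from S100A4, which spans -0.62 to 0.31.

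S100A8 and S100A9 are best known from neutrophils and monocytes, so markers of other cells were counted. In bulk RNA, fewer cells of a type and less RNA per cell cannot be told apart. Of 14 myeloid markers, among them S100A12, 11 were in the table, 4 passed the filter and 0 passed the test. Their sum lay between 4.12 and 5.09 CPM in control libraries and between 4.27 and 5.36 with RBM24. The pan-leukocyte gene PTPRC was at 0 in 5 of 6 libraries and at 0.0545 CPM in control library 1, and the granulocyte receptor gene CSF3R was at 0 in 5 of 6. Other myeloid markers were present at a low level in all 6 libraries, with the integrin gene ITGAM at 0.762 to 1.79, CD68 at 0.891 to 1.54 and CLEC7A at 0.922 to 1.47 CPM. Fibroblast markers, counted since fibroblasts make S100A4, summed to 13.7 to 16.5 CPM in control libraries and to 16.1 to 17.0 with RBM24, of which COL1A1 made 9.82 to 11.8 and PDGFRB 2.75 to 4.18 CPM over the 6 libraries. COL3A1 and DCN were at 0 in all 3 control libraries and at most at 0.0812 CPM with RBM24. Lymphoid markers summed to at most 0.223 CPM, endothelial ones to between 8.70 and 11.7, and those of melanocytes and Schwann cells, which make S100B, to between 3.49 and 3.79, and 0 of the tested ones passed. CDH5 alone made 8.31 to 11.1 CPM of the endothelial sum, and each other endothelial marker was at most at 0.429 CPM.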

How the data were processed

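RNA of 6 CAL27 libraries (3 control plasmid, 3 RBM24) was read as 150-nt pairs, per the labels. HISAT2 and GRCh38 are named in the submitters' processing notes; the counter, annotation and strand setting are not given in the sources used here. Columns marked NC were read as control plasmid. The authors' count table holds raw counts, and the deposited FPKM are the authors' values, rounded.

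The count analysis used edgeR 4.0.16 under R 4.3.3: filterByExpr, TMM factors (0.976 to 1.02), a quasi-likelihood F test of group with 4 residual degrees of freedom, and Benjamini-Hochberg adjustment over 17887 genes at 0.05. An SE is the log2 fold change divided by the root of F. Alternatives used limma 3.58.1 and DESeq2 1.42.0. Positions are from GENCODE 29, which holds 98.5% of tested identifiers. Tables and figures used Python 3.11.15, pandas 2.3.3, scipy 1.17.1 and matplotlib 3.10.9.

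On simulated counts of 17887 genes for this comparison, 52% of 50 genes given a fold of 1.25 were recovered, 66% of those given 1.5, 88% for 2 and 100% for 4, and 18 of 171 calls (10.5%) were false. Chi-square per gene between libraries of a group was 4.50 to 21.9, so none was a copy. The members and lists were chosen with earlier results of these data known. Named were RBM24, all members, other tested S100 genes, up to 4 genes of each other list by smallest p, and the 3 genes nearest in profile to each called member. The alarm genes named beyond the first 4 were added because they passed the test. The 4 alarm genes with positive changes are not named. PTPRC, CSF3R, ITGAM, CD68, CLEC7A, COL1A1, PDGFRB, COL3A1, DCN, CDH5, KRT5, KRT14, DSG3 and EPCAM were named from the marker lists after their values were seen. Some results of the list of intracellular partners, its counts included, are not reported here.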

Additional observations from a re-analysis of the deposited data

How the results depend on the processing

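Among the 16 alternatives, S100A8, S100A9 and S100A7 kept negative changes in all, and S100A4, S100A6, S100A10 and S100A14 positive ones. With a library left out, S100A2 ranged from -0.19 to 0.01 (positive without control library 1) and S100A11 from -0.06 to 0.03. S100A11 turned to 0.01 by limma on FPKM, with total counts only and without RBM24 library 3, and to 0.03 without control library 2; the cause was not tested. The members that fell numbered 1 by DESeq2, 0 by each of the 3 limma fits on FPKM, and 2 to 3 with each library left out. With no filter on low counts 1 member rose (S100A4) and 3 fell, S100A7 among them. That fit gave implausibly small adjusted p-values, and its calls are not relied on. Alarm genes that fell numbered 4 by DESeq2, 0 by each limma fit on FPKM and 2 to 14 with a library left out (counted after seeing the data). Over all genes, 153 rose and 122 fell; the numbers were 57 and 5 by limma on log2(FPKM + 0.1), 46 and 4 on log2(FPKM + 1), 15 and 4 on that scale without a filter, and 305 and 341 in edgeR without a filter. With a library left out they ranged from 61 to 171 and from 29 to 198: 70 and 31 without RBM24 library 1, 61 and 29 without RBM24 library 2, and 69 and 198 lower without control library 1 and 3. Total counts only gave 67.8% higher among the calls, against 55.6%. The log2 ratio of S100A8 to S100A9 ranged from -0.30 to -0.11 with a library left out. No pairing by replicate number was seen: deviations of same-numbered libraries correlated at 0.00724, 0.0555 and -0.00039. Control library 1 correlated best with RBM24 library 3 (0.0914). Such correlations cannot exclude a pairing, and the labels do not tell. With the replicate number as a block, 158 genes rose and 135 fell, and S100A8 (-0.80, edgeR adjusted p = 0.00689) and S100A9 (-0.59, adjusted p = 0.00147) were again the members called.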
